A study of Mus musculus with 6 samples.

Results

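Heat shock chaperones are proteins that help other proteins fold, refold or stay soluble. The transcripts of 10 of them were followed here in AT2 (alveolar type II) cells sorted from mouse lung, the epithelial cells that secrete surfactant: Hspa1a, Hspa1b, Hspa8, Hsp90aa1, Hsp90ab1, Dnajb1, Hsph1, Hspb1, Hspd1 and Hspe1. The genes were taken by symbol, and all 10 were found among the 23337 gene symbols that each file lists. All 10 passed the filter on low counts, and together they held 0.174% to 0.216% of the counts in mutant libraries and 0.174% to 0.207% in wild-type libraries.

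The mutant mice carried SpC-CreER/Dlk1flox/ROSA-Tomato, and the wild-type mice SpC-CreER/ROSA-Tomato. CreER, a recombinase switched on by tamoxifen, was driven by the promoter of surfactant protein C, an AT2 gene, and turned on Tomato. Both groups carried this Cre and reporter, and the mutant alone the floxed Dlk1, whose product resembles Notch ligands. Tomato-positive cells were sorted 10 days after lung injury by Pseudomonas aeruginosa (PA), with 3 libraries per group. An extract note also mentions 8 days of culture, so the labels do not settle whether the cells were cultured before RNA isolation. The labels do not say whether each library came from its own animal, so a p-value here measures only how these samples spread, which may be technical. Age and sex are not given.

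The heat shock response is run by heat shock factors, chiefly HSF1, which bind arrays of short inverted GAA units in the promoters of chaperone genes when unfolded proteins accumulate. Hspa1a and Hspa1b are the classical inducible HSP70 genes, while Hspa8 (HSC70) and Hsp90ab1 are abundant in unstressed cells. J-domain proteins such as Dnajb1 hand clients to HSP70 and start its ATP cycle, and Hsph1 (HSP110) releases the nucleotide again. Hsp90aa1 and Hsp90ab1 mature kinases and steroid receptors, Hspb1 is a small heat shock protein without ATPase activity, and Hspd1 and Hspe1 form the mitochondrial HSP60 and HSP10 folding chamber. Tissue dissociation itself is known to induce HSP70 genes.

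Library totals were 23718958 to 30695994 counts in mutant libraries and 22511461 to 25332204 in wild-type libraries. AT2 markers were abundant in all 6, with sums over 10 genes from 135700 up to 150000 CPM (counts divided by the library total and multiplied by 10 to the power 6) in the mutant and from 147100 up to 171500 CPM in the wild-type group. Dlk1, the targeted gene, was at 0 to 2 counts per library in both groups, which does not check the genotype. Mutant 1 stood apart through genes of other cell types. All 8 club and goblet, all 8 ciliated, all 8 fibroblast, all 8 endothelial, all 4 mesothelial and 11 of 12 leukocyte markers were highest there. Leukocyte markers summed to 579 CPM in mutant 1 and to 10.5 to 41.4 CPM in the other 5 libraries, club and goblet markers to 8926 against 486.5 to 795.5 CPM, and fibroblast markers to 219.6 against 3.50 to 6.98 CPM. None of these markers was at 0 in mutant 1, and 2 or 3 of the 8 fibroblast markers were at 0 in each other library. Wild type 2 differed from the other 5 in Xist, at 184.6 CPM against at most 2.93 CPM. It also differed in the Y-linked gene Ddx3y, at 2.88 CPM against 49.8 to 78.2 CPM in the other 5. By these genes wild type 2 read as female and the other 5 as male, which the labels do not give.

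No chaperone passed the test between mutant and wild-type AT2 cells. The largest differences, in the inducible HSP70 genes, rested in part on mutant 1 and, to a lesser degree, on wild type 1. After Benjamini-Hochberg adjustment over the 12899 tested genes, edgeR called none of the 10 at 5%, and 0% of all genes. DESeq2 called no member either, and 0.295% of all genes, and limma-voom called no member. At an unadjusted p under 0.05 in edgeR there was 1 member, Hsph1, which was higher in mutant, against 6.58% of all tested genes in either direction, 3.69% higher and 2.89% lower. The same gene was the only member without overlap between groups, against 11.7% of all tested genes, 5.23% higher and 6.43% lower. Without mutant 1 there were 0 members at an unadjusted p under 0.05, against 5.85% of genes, and 1 without overlap, against 22.8%. The median log2 fold change over the members was 0.05 and over all tested genes 0.0048. The log2 fold changes were 0.63 to 1.16 for Hspa1a, Hspa1b and Hsph1 and -0.25 to 0.06 for the other 7. In bulk RNA, fewer cells holding a transcript and less RNA per cell cannot be told apart.

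The inducible HSP70 genes Hspa1a and Hspa1b lie next to each other on chromosome 17 and encode nearly the same protein. Their promoters are printed here because the results turn on this pair, beside those of Hsph1 and of Hspe1, which overlaps Hspd1. Each is given as the 250 bases before the start site from RefSeq on GRCm38.p6, 5′ to 3′ on the gene's strand. Capitals mark inverted units of a heat shock element, searched on both strands as GAANNTTC and TTCNNGAA (2 units) and as either with a further inverted unit after 2 more bases (3 units), so that each 3-unit match contains 2-unit matches.
Hspa1a, chr17:34972157-34972406, minus strand: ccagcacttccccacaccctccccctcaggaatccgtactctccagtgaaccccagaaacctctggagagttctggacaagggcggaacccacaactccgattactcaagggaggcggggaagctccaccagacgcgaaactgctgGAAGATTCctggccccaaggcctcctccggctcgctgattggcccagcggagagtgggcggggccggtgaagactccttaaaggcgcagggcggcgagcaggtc
Hspa1b, chr17:34959239-34959488, minus strand: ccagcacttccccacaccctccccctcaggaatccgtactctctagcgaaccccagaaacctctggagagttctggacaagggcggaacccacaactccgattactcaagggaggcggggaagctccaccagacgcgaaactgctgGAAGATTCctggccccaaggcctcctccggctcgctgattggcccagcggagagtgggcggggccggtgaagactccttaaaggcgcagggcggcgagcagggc
Hsph1, chr5:149636316-149636565, minus strand: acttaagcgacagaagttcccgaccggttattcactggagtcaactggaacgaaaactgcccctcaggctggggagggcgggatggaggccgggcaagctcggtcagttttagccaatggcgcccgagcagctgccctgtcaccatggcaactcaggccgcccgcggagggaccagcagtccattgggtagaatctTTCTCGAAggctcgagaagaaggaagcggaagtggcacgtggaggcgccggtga
Hspe1, chr1:55087898-55088147, plus strand: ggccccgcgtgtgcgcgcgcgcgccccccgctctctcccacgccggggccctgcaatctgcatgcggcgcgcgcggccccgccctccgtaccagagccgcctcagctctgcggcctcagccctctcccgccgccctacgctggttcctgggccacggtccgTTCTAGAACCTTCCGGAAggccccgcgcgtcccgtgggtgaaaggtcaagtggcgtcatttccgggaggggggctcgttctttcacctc

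The promoters of Hspa1a and Hspa1b differed at 3 of 250 bases and held the same 2-unit match, starting 104 bases before the start site. Windows of 300 bases, from 250 before to 50 after the start, were given for 7 of the 10 members, in 10 windows. A 2-unit match was in 7 of the 10 windows, from 6 genes, against 15.1% of all 32851 windows in the table. A 3-unit match was in 4 of the 10 windows, from Hspd1, Hspe1 and Hsph1, against 0.603% of all windows, and in Hsph1 it lay past the start site. The 2 Hsph1 windows overlap and hold the same matches, so the windows are not separate sites. The block of 18 bases before Hspe1 is also in a window of Hspd1, which is read from the opposite strand, so the pair shares it. Hspb1 had 2 separate 2-unit matches and Dnajb1 none. A match is a description of letters only, and the counts do not say whether a factor was bound there.

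Hspa1a had 63.3, 39.3 and 32.9 CPM in mutants 1, 2 and 3, against 16.6, 34.2 and 29.9 CPM in wild types 1, 2 and 3 (TMM-normalised, as all gene values below). Mutant 1 was the highest library and wild type 1 the lowest, and mutant 3 lay below wild type 2, so the groups overlapped. The means were 45.2 ± 16.0 CPM in mutant and 26.9 ± 9.21 CPM in wild-type libraries (SD, n = 3 each). This gave a log2 fold change of 0.75 (95% interval -0.02 to 1.51, edgeR adjusted p = 0.737). The log2 fold change was 0.42 (-0.19 to 1.03) without mutant 1 and 0.49 without wild type 1. With the replicate number as a block, a pairing that the labels do not give, the log2 fold change of Hspa1a was 0.73 (edgeR adjusted p = 0.744).

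Hspa1b, the neighbouring copy, had 59.3, 28.7 and 11.7 CPM in mutants 1, 2 and 3, against 8.09, 23.2 and 13.4 CPM in wild types 1, 2 and 3. It was the most variable member, with the highest library 7.33-fold above the lowest, and mutant 3 lay below wild types 2 and 3. Its log2 fold change was 1.16 (-0.25 to 2.56, edgeR adjusted p = 0.739), 0.43 (-0.62 to 1.48) without mutant 1 and 0.86 without wild type 1. In limma-voom, which weights libraries by quality, it was 0.07. The SD of its log2 level over the 6 libraries was larger than that of 99.4% of genes, and that of Hspa1a larger than 98.5%. These were all genes with a mean of at least 10 CPM and no library at 0, members included.

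Reads of the pair are hard to separate. Of all stretches of 50 bases in the Hspa1a transcript, 58.8% also occur in Hspa1b, and 62.3% of those in Hspa1b occur in Hspa1a (GENCODE M21). The sources used here do not give how shared reads were counted. The near-identical globin genes Hba-a1 and Hba-a2 had 0 counts in every library, mutant 1 included, where the erythroid gene Alas2 was present. The globin genes Hbb-b1 and Hbb-b2 were at 0 as well. Whether shared reads were dropped was not tested. With Hspa1a and Hspa1b summed before the fit, the log2 fold change was 0.91 (edgeR adjusted p = 0.737). It was 0.43 without mutant 1 and 0.63 without wild type 1.

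The balance within the pair also changed from library to library. Hspa1b made up 48.4%, 42.2% and 26.3% of the pair's counts in mutants 1, 2 and 3, against 32.8%, 40.4% and 30.99% in wild types 1, 2 and 3. The exact 95% binomial intervals were 46.8% to 49.9%, 39.8% to 44.7% and 23.9% to 28.8% in mutants 1, 2 and 3, against 28.8% to 36.9%, 37.8% to 43.0% and 28.2% to 33.9% in wild types 1, 2 and 3. They cover counting error only. The intervals of mutants 1 and 2 and of wild type 2 lay above those of the other 3 libraries. Between the groups the share did not separate, at 39.0% ± 11.4 in mutant and 34.7% ± 4.99 in wild-type libraries (SD, n = 3 each; two-sided exact permutation p = 0.6, where 0.1 is the smallest possible).

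The MHC class II accessory gene H2-DMb2, on the same chromosome with 39 protein-coding genes between it and Hspa1b in RefSeq order, stood at 46.0, 33.2 and 13.4 CPM in mutants 1, 2 and 3, against 8.55, 31.8 and 5.21 CPM in wild types 1, 2 and 3. This gene was picked with its values in view. Mutants 1 and 2 and wild type 2 were thus the 3 highest libraries for both genes, across the groups. In the class II gene H2-Aa, with 31 coding genes between it and Hspa1b, these 3 were also the highest, at 1896 and 1686 CPM in mutants 1 and 2 and 1765 CPM in wild type 2, against 1230 to 1554 CPM in the other 3. In H2-Eb1, with 30 between, they were the lowest, at 351 and 275 CPM in mutants 1 and 2 and 308 CPM in wild type 2, against 515 to 618 CPM in the other 3. Both were likewise picked with values in view. The part of these patterns in the Hspa1b values was not tested.

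**Figure D1:**
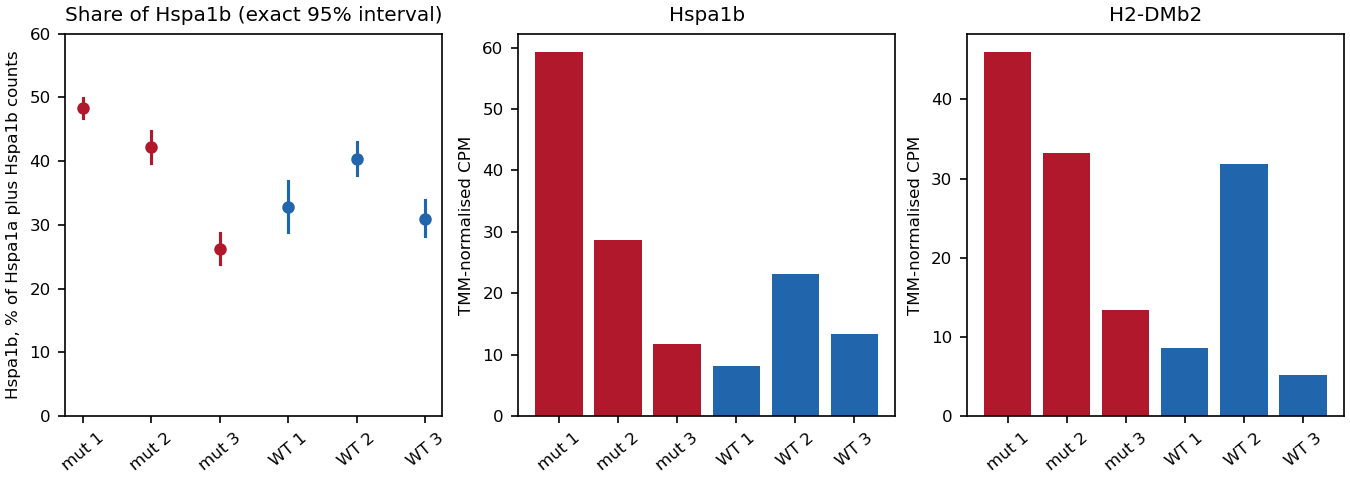
Left, Hspa1b as a percent of Hspa1a plus Hspa1b counts in each library with its exact 95% interval; middle and right, TMM-normalised CPM of Hspa1b and H2-DMb2 (bars from 0). Mutants 1 and 2 and wild type 2 are the 3 highest libraries in each panel.

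Leukocyte and endothelial marker sums, like Hspa1a and Hspa1b, were highest in mutant 1, and the order of the other libraries differed by marker list. Wild type 2 had the lowest of both sums. After mutant 1, though, it had the highest mesothelial sum (5.84 CPM). For club and goblet markers (684.2 CPM) only mutant 1 and wild type 1 (795.5 CPM) lay above it. Hspa1a (34.2 CPM) and Hspa1b (23.2 CPM) in wild type 2 lay above those of mutant 3 and wild types 1 and 3. In the mutant group leukocyte markers summed to 22.01 to 579 CPM and endothelial markers to 9.36 to 122 CPM, against 10.5 to 30.8 CPM and 5.76 to 7.62 CPM in the wild-type group, with the highest sums in mutant 1. Their part in the HSP70 levels was not tested. Immediate early genes also respond to dissociation. Of 19 tested, 8 had positive and 11 negative log2 fold changes with a median of -0.02, and 11 had positive and 8 negative ones without mutant 1. Klf2, a transcription factor gene with the smallest p among them, had 198.5, 119.9 and 129.6 CPM in mutants 1, 2 and 3, against 93.0, 134.7 and 97.0 CPM in wild types 1, 2 and 3. Its log2 fold change was 0.47 with all libraries and 0.21 without mutant 1. Dusp1, a phosphatase gene, had a log2 fold change of 0.31 (-0.06 to 0.67). Wild type 1, where Hspa1a and Hspa1b were lowest, was also the lowest library for most of these 19 genes. The exceptions were Dusp1, Zfp36, Ier3, Jund, Atf3 and Myc. The part of this shared order in the HSP70 levels was not tested.

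Profiles over the 6 libraries were compared with 8614 genes that had a mean of at least 10 CPM and no library at 0, members left out. The summed pair was closest to Ctgf, which encodes a matricellular growth factor, with a root-mean-square difference of 0.199 on the log2 scale. Ctgf stood at 24.2, 12.5 and 10.7 CPM in mutants 1, 2 and 3 and at 6.03, 11.8 and 11.9 CPM in wild types 1, 2 and 3, also highest in mutant 1 and lowest in wild type 1. Next came Pdzd2 (0.251), Gcnt2 (0.302), Fam71a (0.318) and the kinase gene Fyn (0.334).

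Hspa8, the constitutive HSP70, had 578, 613 and 476.5 CPM in mutants 1, 2 and 3, against 512, 566 and 647.5 CPM in wild types 1, 2 and 3. The groups overlapped, with the highest library a wild type and the lowest a mutant, and the log2 fold change was -0.05 (-0.36 to 0.26). Per 100 Hspa8 counts, the inducible pair had 21.2, 11.1 and 9.38 counts in mutants 1, 2 and 3, against 4.82, 10.15 and 6.70 in wild types 1, 2 and 3. The means were 13.9 ± 6.39 in mutant and 7.22 ± 2.70 in wild-type libraries (SD, n = 3 each; two-sided exact permutation p = 0.2, without the pairing by number), and mutant 3 lay below wild type 2. For the summed pair of genes, the log2 fold change with the replicate number as a block was 0.83 (edgeR adjusted p = 0.744).

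Of the HSP70 partners, Hsph1 was the member with the smallest p. It had 16.65, 13.1 and 12.2 CPM in mutants 1, 2 and 3, against 9.14, 6.09 and 11.9 CPM in wild types 1, 2 and 3. Each mutant library lay above each wild-type library, with mutant 3 just above wild type 3. The log2 fold change was 0.63 (0.02 to 1.24, edgeR adjusted p = 0.737), and 0.49 (-0.12 to 1.09) without mutant 1. It was 0.41 without wild type 2, the lowest library, and 0.88 without wild type 3. None of its stretches of 50 bases occurs in another annotated gene, unlike those of the HSP70 genes.

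Dnajb1, the HSP40 that works with HSP70, had 105, 106 and 114.5 CPM in mutants 1, 2 and 3, against 79.8, 113 and 133 CPM in wild types 1, 2 and 3. The wild-type libraries spread on both sides of the mutant ones, and the log2 fold change was 0.0044 (-0.40 to 0.41).

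Both HSP90 genes had log2 fold changes near 0. Hsp90ab1, the constitutive form, had 890, 957 and 790 CPM in mutants 1, 2 and 3, against 860, 865 and 901 CPM in wild types 1, 2 and 3. Its log2 fold change was 0.0060 (-0.23 to 0.24). Hsp90aa1, the inducible form, had 203, 274 and 193 CPM in mutants 1, 2 and 3, against 192, 201 and 250.4 CPM in wild types 1, 2 and 3, and a log2 fold change of 0.06 (-0.32 to 0.44). Mutant 2 and wild type 3 were its highest libraries, which differs from the order of Hspa1a. Wild type 1 was the lowest library for both genes, for Hsp90aa1 just below mutant 3.

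Hspb1, the small heat shock protein also called HSP25 in mice, was the steadiest member. It had 20.2, 18.8 and 18.1 CPM in mutants 1, 2 and 3, against 18.0, 18.8 and 18.6 CPM in wild types 1, 2 and 3, with the highest library 1.12-fold above the lowest. The log2 fold change was 0.05 (-0.17 to 0.26).

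In the mitochondrial pair, Hspd1 had 73.02, 92.9 and 76.3 CPM in mutants 1, 2 and 3, against 78.4, 73.1 and 83.03 CPM in wild types 1, 2 and 3, and a log2 fold change of 0.05 (-0.21 to 0.30). Hspe1 had 12.4, 12.2 and 13.0 CPM in mutants 1, 2 and 3, against 19.0, 12.5 and 13.1 CPM in wild types 1, 2 and 3. Its log2 fold change of -0.25 (-0.67 to 0.17) was -0.04 without wild type 1, its highest library. Although the genes share the promoter block printed above, Hspe1 counts per 100 Hspd1 counts were 16.99, 13.1 and 17.01 in mutants 1, 2 and 3 and 24.2, 17.15 and 15.8 in wild types 1, 2 and 3. The 2 genes overlap on opposite strands, and 44.8% of the stretches of 50 bases in each occur in another annotated gene, for Hspd1 chiefly a processed pseudogene. The profile closest to that of Hspd1 was Plekhh1, with a root-mean-square difference of 0.0152, followed by Tpd52 (0.0275), Scaf4 (0.0294), Cox10 (0.0348) and Ogfod1 (0.0396).

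**Figure D2:**
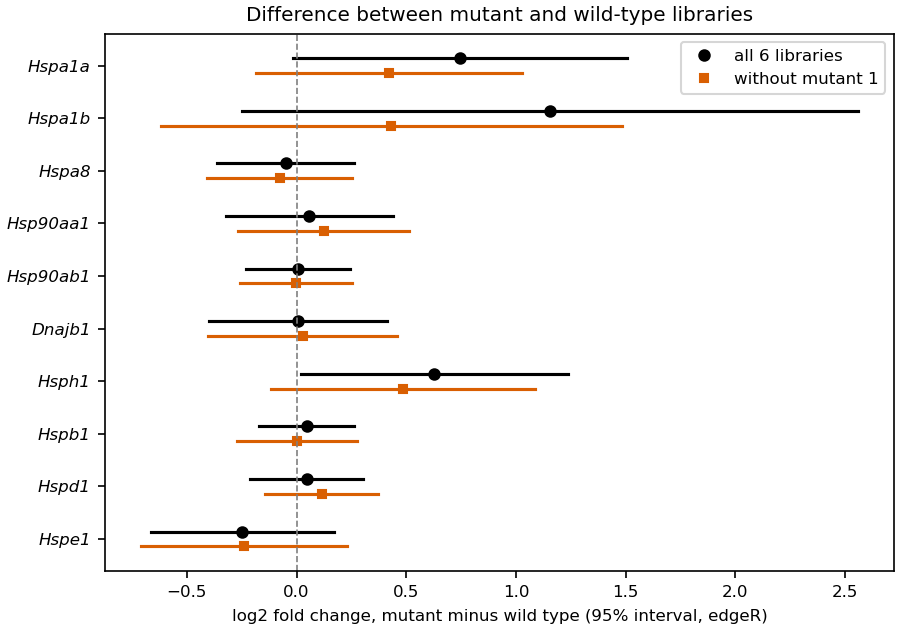
Log2 fold changes (mutant minus wild type) of the 10 chaperones from edgeR, with 95% intervals, for all 6 libraries (black circles) and without mutant 1 (orange squares). Hspa1b is at 1.16 with all libraries and at 0.43 without mutant 1.

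Levels were compared between genes per kilobase of the longest coding transcript. Hsp90ab1 was highest, at 349 ± 33.3 CPM per kilobase in mutant and 347 ± 8.77 in wild-type libraries (SD, n = 3 each), followed by Hspa8 at 232 ± 29.6 in mutant and 240.2 ± 28.6 in wild-type libraries and Hsp90aa1 at 68.1 ± 13.4 in mutant and 65.4 ± 9.59 in wild-type libraries. These 3 kept their order in all 6 libraries without overlap of their ranges. Dnajb1 (26.6 to 44.3 over the libraries) and Hspd1 (30.1 to 38.3) did not separate. Hspb1 (19.4 to 21.8), Hspe1 (15.7 to 24.5) and Hspa1a (5.59 to 21.3) overlapped in range as well, each being above the next in 5 of 6 libraries. Hspa1a lay above Hspa1b (2.89 to 21.2), and Hspa1b above Hsph1 (1.601 to 4.38), within each of the 6 libraries. Transcripts whose sequence recurs in other genes may be counted in part, and the effect on this order was not tested. The share of stretches of 50 bases found in another gene was 74.8% in Hspa8, 58.5% in Hsp90aa1, 51.6% in Hspb1, 4.49% in Hsp90ab1 and 0.441% in Dnajb1.

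**Figure D3:**
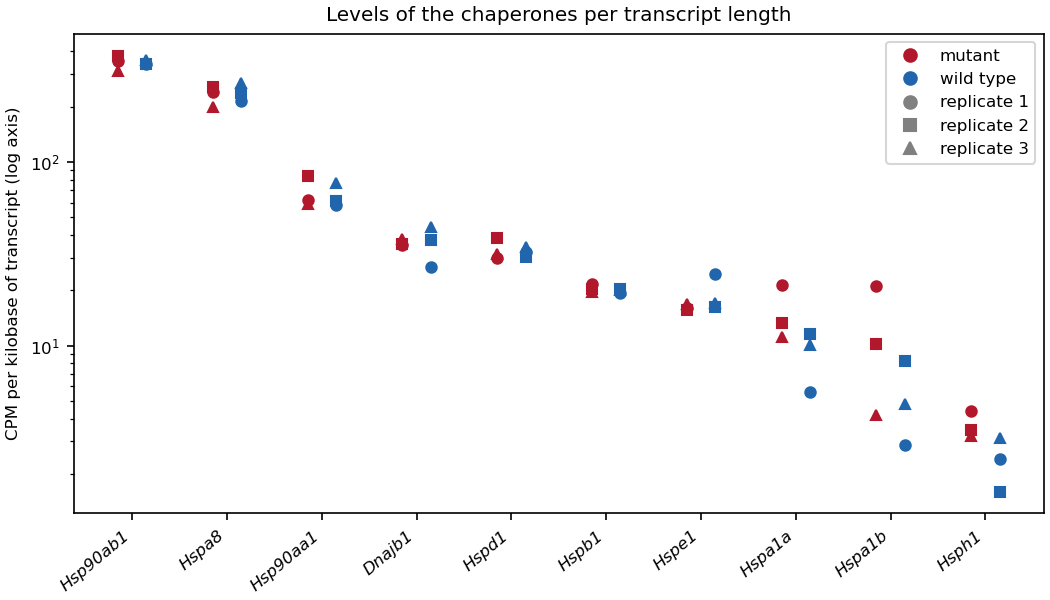
CPM per kilobase of transcript (log axis) of each chaperone, mutant libraries in red left of wild-type libraries in blue, with symbols for the replicate number. Hsp90ab1 and Hspa8 are highest in each library and Hsph1 is lowest.

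The rest of the chaperone system was examined through 10 lists of related genes, 123 genes in all, of which 114 were tested. None passed the adjusted threshold. At an unadjusted p under 0.05 there were 3 (2.63%, against 6.58% of all tested genes), and 9 had groups without overlap (7.89%, against 11.7%).

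Among regulators, Hsf1, the main heat shock factor, had a log2 fold change of 0.06, and Hsf2 had the smallest p, with 12.2, 17.2 and 14.5 CPM in mutants 1, 2 and 3, against 9.46, 11.7 and 14.5 CPM in wild types 1, 2 and 3, and a log2 fold change of 0.29 (-0.18 to 0.76). Hsbp1, a small protein that binds HSF1, was at -0.08 (-0.25 to 0.09). Of 8 tested HSP70 relatives 4 were positive. Hspa4l, an HSP110 relative of Hsph1, averaged 43.1 ± 2.65 CPM in mutant and 36.8 ± 2.85 CPM in wild-type libraries (SD, n = 3 each), without overlap, at a log2 fold change of 0.23 (edgeR adjusted p = 0.737). Hspa12a had 4.88, 2.48 and 1.66 CPM in mutants 1, 2 and 3, against 2.10, 2.20 and 1.87 CPM in wild types 1, 2 and 3, and its log2 fold change of 0.55 was 0.0046 without mutant 1.

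Exchange factors of HSP70 from the BAG, HspBP1 and GrpE families had negative log2 fold changes in 8 of 8, with a median of -0.13 (-0.10 without mutant 1, again 8 of 8), where 51.1% of all tested genes were positive. The HSP110 class, which also exchanges the nucleotide, was not in this list, and its members Hsph1 (0.63), Hspa4l (0.23) and Hspa4 (0.07) were positive. Bag3, which links HSP70 to autophagy and to Hspb8, had 41.9, 58.5 and 47.6 CPM in mutants 1, 2 and 3, against 57.5, 62.6 and 62.5 CPM in wild types 1, 2 and 3. Mutant 2 lay above wild type 1, and the log2 fold change was -0.30 (edgeR adjusted p = 0.737), and -0.20 without mutant 1. Hspbp1, another exchange factor, was at -0.23 (-0.56 to 0.10).

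J-domain proteins were balanced, with 11 positive and 9 negative of 20 and a median of 0.01. Dnaja3, the mitochondrial J-domain protein, averaged 44.2 ± 1.36 CPM in mutant and 50.5 ± 5.52 CPM in wild-type libraries, and Dnajc5, the cysteine string protein of secretory vesicles, 124.7 ± 7.05 CPM in mutant and 136.6 ± 0.565 CPM in wild-type libraries (SD, n = 3 each). Both had groups without overlap, and neither passed the test (edgeR adjusted p = 0.739 for each).

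HSP90 cochaperones had 5 positive and 9 negative of 14, with a median of -0.03. Cacybp, which binds Siah ubiquitin ligases, had 28.0, 27.6 and 31.3 CPM in mutants 1, 2 and 3, against 37.9, 33.04 and 34.1 CPM in wild types 1, 2 and 3, a log2 fold change of -0.27 (-0.50 to -0.05, edgeR adjusted p = 0.737). The groups did not overlap, and this was the smallest p among the related genes. Stub1, the ubiquitin ligase CHIP that takes clients of HSP70 and HSP90 to the proteasome, was at -0.30 (-0.63 to 0.02).

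Small heat shock proteins had 5 tested genes, 3 of them positive. Cryab had 42.7, 59.7 and 57.4 CPM in mutants 1, 2 and 3, against 45.4, 40.5 and 46.7 CPM in wild types 1, 2 and 3. Mutant 1 was below wild types 1 and 3, and the log2 fold change was 0.27 with all libraries and 0.41 without mutant 1. Hspb6 was at -0.18 (-0.50 to 0.14), and at -0.11 without mutant 1.

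The cytosolic folding chamber TRiC and its helper prefoldin had 5 positive and 8 negative of 13, all between -0.14 and 0.06, and the smallest p-values were those of Pfdn2 (-0.14) and Pfdn5 (-0.09). The mitochondrial proteases and chaperones had 4 positive and 5 negative of 9, with Afg3l2, an inner-membrane protease, at 51.8 ± 1.90 CPM in mutant and 47.9 ± 2.01 CPM in wild-type libraries (SD, n = 3 each) and Clpp, the matrix protease, at -0.12 (-0.38 to 0.14). ER chaperones were all 14 negative, with a median of -0.18, and 12 of 14 negative with a median of -0.11 without mutant 1. Hspa5, the HSP70 of the ER, had 648, 953 and 845 CPM in mutants 1, 2 and 3, against 1005, 899 and 1094 CPM in wild types 1, 2 and 3. Its log2 fold change was -0.29 with all libraries and -0.15 without mutant 1, and Sdf2l1 was at -0.87 (-1.94 to 0.19). Wild type 1 was the highest library for all of these ER chaperones except Hspa5, Dnajc10, Dnajc3, Dnajb9 and Serpinh1. The median of the list without wild type 1 was not computed.

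**Figure D4:**
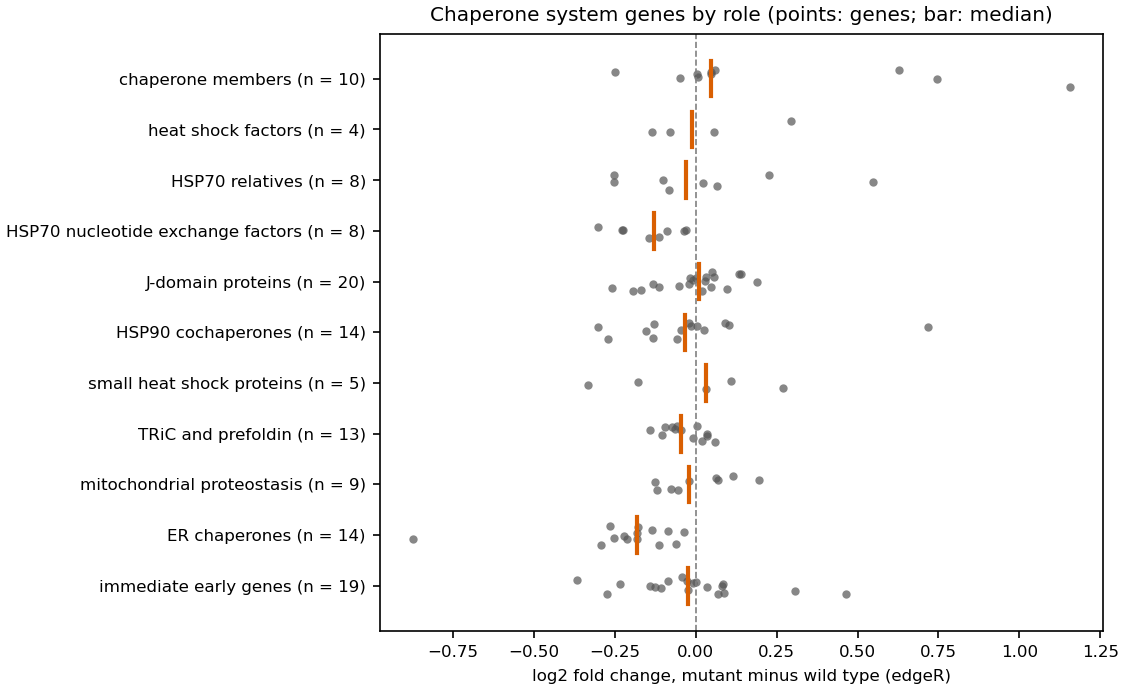
Log2 fold changes (mutant minus wild type) of single genes as points, by role, with the median of each list as an orange bar. The chaperone members have a median of 0.05, the nucleotide exchange factors other than HSP110 -0.13 and the ER chaperones -0.18.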

How the data were processed

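RNA-seq counts were available for 3 mutant and 3 wild-type libraries. The authors deposited raw counts for each gene symbol, whole numbers in a file of its own for each library; CASAVA, DESeq2 and the build mm9 are named, per the submitters' processing notes. Not given in the sources used here: aligner, counter, annotation and strand handling. A NextSeq500 and a HiSeq4000 are each named in the labels; all libraries shared a flow cell, per the labels' protocols. Groups came from the sample titles.

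After filterByExpr and TMM scaling, mutant was compared with wild type in edgeR 4.0.16 (R 4.3.3) by the quasi-likelihood test, two-sided, without robust dispersion. The p-values were adjusted by Benjamini-Hochberg over 12899 genes, and 5% was the threshold. Intervals (95%) are from this fit. DESeq2 1.42.0, limma 3.58.1 (limma-voom with quality weights), other scalings and filters, and left-out libraries were alternatives. Marker sums are CPM of the library total. A count of 0 allows 3 counts, 0.0977 to 0.133 CPM, for counting error only.

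The members and lists were chosen with earlier results of these data known. Named genes were the 10 members, the 2 genes of each related list with the smallest p, and the 5 nearest profiles of the Hspa1a and Hspa1b sum and of Hspd1. Hsf1, Hspa4, H2-DMb2, H2-Aa, H2-Eb1, Alas2, Hba-a1, Hba-a2, Hbb-b1 and Hbb-b2 were chosen after their values were seen. So were Zfp36, Ier3, Jund, Atf3, Myc, Dnajc10, Dnajc3, Dnajb9 and Serpinh1. Of 123 related genes 1 symbol was not matched and 8 failed the filter. Transcript lengths and shared stretches of 50 bases came from GENCODE M21 (GRCm38), and promoters from RefSeq (GRCm38.p6), a different build from that of the counts; no read coordinates were used.

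Replicates differed beyond sampling noise, with a chi-square of 18.4 to 76.7 per degree of freedom within groups. Libraries with the same number deviated together from the group means (r of 0.25, 0.16 and 0.16). Libraries of unlike number were not compared in this way, so these values do not show a pairing. The labels give no day, litter or batch shared by number. The main fit was therefore unpaired, and the replicate number was a block only in an alternative fit.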

Additional observations from a re-analysis of the deposited data

How the results depend on the processing

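No chaperone passed the adjusted threshold under any of the 16 alternatives. Of 173 recomputed fold changes 156 kept their sign. Over all genes DESeq2 called 38 where edgeR called 0, and leaving out 1 library gave 0 to 1. At an unadjusted p under 0.05 there were 2 members without a filter, with at least 1 CPM in 3 libraries and in DESeq2 (Hspa1a and Hsph1 in each), and 0 to 2 with 1 library left out. Members without overlap numbered 1 to 4 with 1 library left out and 3 without mutant 1 and wild type 2 together. Fewer libraries make this commoner in all tested genes, at 11.7% with all 6 libraries and 22.8% without mutant 1. The share was not computed for the other fits, so these counts are not read as a gain. Signs turned in Hsp90ab1, Hsp90aa1, Hspd1, Hspa8, Dnajb1 and Hspb1, each between -0.05 and 0.06 with all libraries. Hsp90ab1 was at -0.0041 and Dnajb1 at -0.0054 without a filter, Hsp90ab1 at -0.058 and Hspb1 at -0.0031 in limma-voom, and Hsp90ab1 at -0.0033 without mutant 1 and wild type 2. With 1 library left out, Hsp90ab1 ran from -0.063 to 0.077, Hsp90aa1 from -0.12 to 0.18, Hspd1 from -0.071 to 0.11, Hspa8 from -0.13 to 0.050 and Dnajb1 from -0.17 to 0.17. The median over members ran from -0.02 (without mutant 2) to 0.13 (without wild type 3). Hspa1b was at 0.07 and Hspa1a at 0.37 in limma-voom, Hspa1b ran from 0.43 (without mutant 1) to 1.62 (without wild type 2), Hsph1 ran from 0.41 (without wild type 2) to 0.88 (without wild type 3) and was at 0.27 without mutant 1 and wild type 2. The causes were not tested. With the replicate block edgeR called 0 genes, Hsph1 was at 0.67 and Hspa1b at 0.94, and the block changed no call. With 3 libraries a group, the intervals of Hspa1a, Hspa1b and Hsph1 are too wide to tell small from more than 2-fold changes.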
